A study of Mus musculus with 7 samples.

Results

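The Firre locus was taken as the stretch of the mouse X chromosome at mm9 chrX:47800000-48100000, with the gene Firre at about 47908000 to 47990000. Members were all deposited ATAC-seq peaks in this window of 300 kb. In ATAC-seq, the Tn5 transposase cuts accessible DNA and tags it for sequencing, so that peaks are places of open chromatin. Over the 7 peak lists, 1 per group, the window held 98 of 644207 peaks. The list of peaks reproducible between libraries held 8 of 28907 peaks for female embryonic stem cells (mESC), 18 of 41126 for wild-type neural progenitor cells (NPC) and 8 of 37270 for deltaFT NPC. The lists of male TXY cells held 16 of 139825 for wild type without doxycycline (no dox) and 15 of 125498 with it (plus dox). For TXY deltaRepA they held 14 of 129055 without dox and 19 of 142526 with it.

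The 3 female groups all carry X chromosomes of different strains, from a cross of 129S1 with Cast: mESC of line F1216, grown in serum and mLIF, wild-type NPC of line C2, and deltaFT NPC of line sgdgb2, both grown with FGF and EGF. As background, deltaFT is a deletion spanning Dxz4, the macrosatellite at which the inactive X folds into a pair of superdomains. The 4 TXY groups are male J1 mESC with an inducible Xist on the single X, either intact (TXY WT) or lacking the A repeat (TXY deltaRepA), left untreated or given doxycycline at 2 ug/mL for 48 hours. Each group is 1 sample and each NPC group 1 named line, and the TXY lists are each a merged list, so a difference between groups cannot be told apart from a difference between lines. No test between groups was made, and the intervals given are exact 95% intervals that cover counting error only: no molecular identifiers are named in the labels, and reads can repeat 1 molecule. The mESC sample is called neural progenitors in its source label and the descriptions of both plus-dox samples name a no-dox file. Titles were followed in each case. No annotation in mm9 was used here, so the labelled cell types were not checked against marker genes.

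Firre is a long noncoding RNA gene of the X chromosome whose transcript carries many copies of a local repeat and stays in the nucleus. Repeats along the gene are bound by CTCF, a DNA-binding protein that anchors chromatin loops, and this binding is known on the inactive X. On that chromosome the locus is also known for long-range contacts with Dxz4. During differentiation of female stem cells into neural progenitors, Xist RNA coats 1 of the X chromosomes and most of its regulatory sites close.

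RefSeq places Firre on the minus strand, so that its start lies at the upper end of the interval. The promoter is shown because the peak nearest that end, called the 5' peak here, differs by allele from the peaks inside the gene. It runs from 250 bases before to 50 after the start, at chrX:50635272-50635571 of build GRCm38.p6. Capitals mark an E-box, CACGTG, and a GC box, GGGCGG.
Firre promoter: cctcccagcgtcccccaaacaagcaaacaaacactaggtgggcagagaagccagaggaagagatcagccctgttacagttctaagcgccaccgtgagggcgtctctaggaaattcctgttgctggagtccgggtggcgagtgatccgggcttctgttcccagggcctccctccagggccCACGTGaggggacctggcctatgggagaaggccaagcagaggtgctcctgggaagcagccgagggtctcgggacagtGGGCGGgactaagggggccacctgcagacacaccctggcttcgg
The E-box begins at -71 from the start and the GC box at 6, and 7.15% and 35.7% of 32851 RefSeq promoters of this length hold these letters on either strand. A CTCF core, written CC, 3 free letters, AG, 2 free letters, GGC, the YY1 core CCATNTT and the TATA box TATAAA have no match in this window, on either strand. They are held by 8.61%, 16.1% and 13.6% of promoters. The promoter has 12 CpG, against a median of 7, and a GC content of 62.7% against 52.7%. The motifs were chosen after the sequence was seen. The peaks are in mm9 and the promoter is not, so neither was placed on the other. In RefSeq the gene is 72202 bases long, with Stk26, a protein kinase gene, next on the 5' side and the pseudogene Gm14620 on the 3' side. Below, inside the gene means inside the interval of 82 kb, which is longer. Its farthest reproducible peak, 74.2 kb from the 5' peak in wild-type NPC, may thus lie past the 3' end.

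Open chromatin in the window lay mostly inside the gene. The interval of Firre is 27.3% of the window, and held 6 of the 8 window peaks in mESC, 16 of 18 in wild-type NPC and 6 of 8 in deltaFT NPC. In the TXY lists it held 14 of 16, 14 of 15, 13 of 14 and 17 of 19. When all lists, including those of single libraries, were joined by overlap, the interval held 24 separate sites. Of these, 6 were found in every one of the 7 groups and 4 in a single group. Neighbouring sites present in at least 5 groups, 15 in all, stood a median of 4.39 kb apart, with gaps from 2.35 to 12.2 kb. The other 218 kb of the window held 28 sites, none in all groups and 22 in a single group. The 7 lists without those of single libraries held 19 of the 24 interval sites and 5 of these 28. The rest were seen only in single-library lists, which only the female lines have. Such site counts were not made for the rest of chrX, so they have no background.

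**Figure D1:**
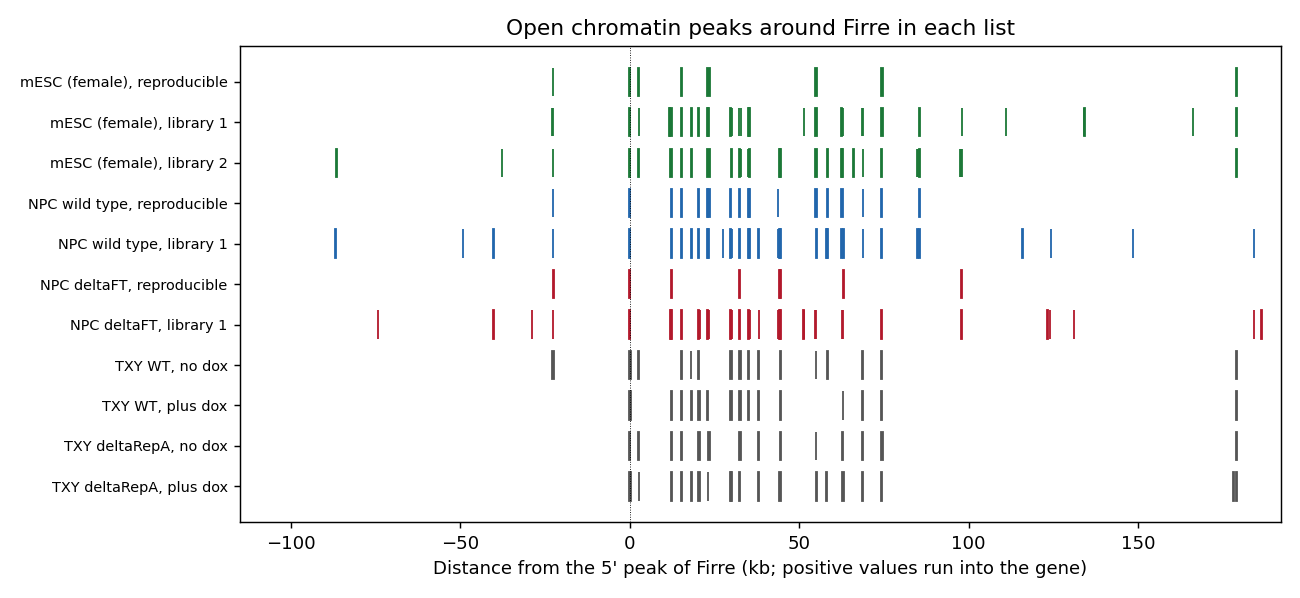
Peaks of the Firre window by distance in kb from the 5' peak, positive into the gene, 1 row per list. Ticks are drawn at least as wide as their outline, so the narrowest peaks look wider than they are. Library 2 of the NPC lines is left out, because its chrX rows repeat library 1. The 5' peak at 0 is present in every row, and most shared peaks lie between 0 and 75 kb.

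Set against 537 stretches of chrX of the same length that held a peak in any list, the window was rich in peaks in wild-type NPC, where 1 stretch held more than its 18. In mESC 21 stretches held more than its 8, and in deltaFT NPC 18 did. In TXY cells the number of stretches with more was 14 and 4 for wild type without and with dox, and 20 and 5 for deltaRepA. The median stretch held 1 to 4 peaks.

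The reproducible lists differ from the library lists at this locus. Library 1 listed 31 window peaks in mESC, 34 in wild-type NPC and 34 in deltaFT NPC, and library 2 of mESC listed 30. In both NPC lines the 34 window rows filed for library 2 repeat library 1 value for value. None of the library 2 −log10 p values that the reproducible lists quote for these peaks occurs there, so library 2 gave no separate list of this locus. A peak missing from a reproducible list is therefore not shown to be closed.

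At the 5' end of Firre, both X chromosomes were open in stem cells, and nearly all allelic reads of both progenitor lines came from 1 of them. The deposited lists do not say which strain each allele column stands for, or whether their read counts cover 1 or both libraries of a line, and the alleles are named by column order, first-listed or second-listed. In mESC the 5' peak (47988356 to 47988735) held 394 reads, of which 106 were first-listed and 94 second-listed. In wild-type NPC it (47988364 to 47988786) held 240 reads, 6 first-listed and 104 second-listed. In deltaFT NPC it (47988403 to 47988765) held 254 reads, 2 first-listed and 126 second-listed. In mESC the first-listed share was thus 53.0% (45.8% to 60.1%). It was 5.45% (2.03% to 11.5%) for the wild-type progenitors and 1.56% (0.190% to 5.53%) for the deltaFT line. The mESC interval lay apart from both NPC intervals, while those of the NPC lines overlapped.

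**Figure D2:**
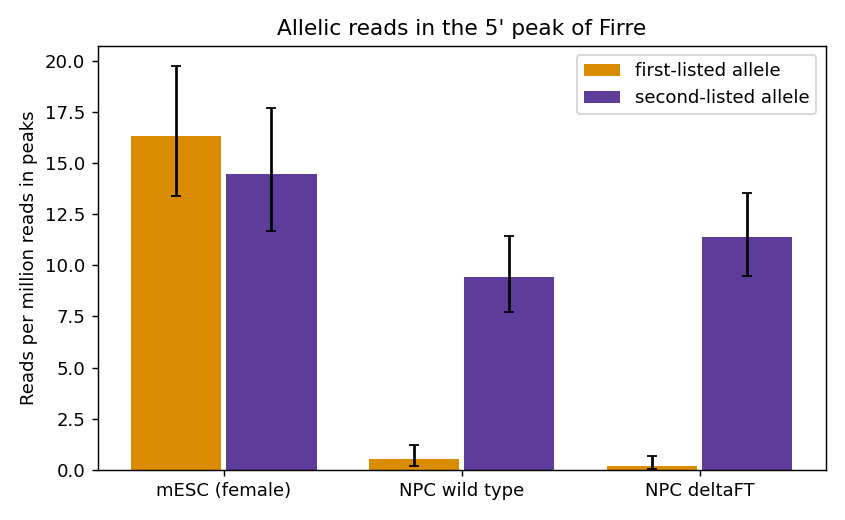
Reads of each allele in the 5' peak of Firre per 1000000 reads in peaks (RPM), with exact 95% Poisson intervals of counting error as bars, 1 sample per line. The first-listed allele is at 16.3 in mESC, 0.545 for the wild-type NPC line and 0.180 for deltaFT, and the second-listed allele lies between 9.44 and 14.5.

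Scaled to 1000000 reads in all peaks (RPM), the first-listed allele of this peak gave 16.3 RPM in mESC and 0.545 in wild-type NPC, a ratio of 0.0334 (0.0120 to 0.0750). The second-listed allele gave 14.5 and 9.44, a ratio of 0.652 (0.488 to 0.871). Over all reads the ratio was 0.359 (0.304 to 0.422), a log2 ratio of -1.48. The scale depends on the reads in each line's own peak list. Matched peaks of wild-type NPC against mESC had a median log2 ratio of -0.200 on autosomes and -0.759 on chrX, over all reads. The ratio of the second-listed allele is thus not shown to lie beyond this general shift. Between the NPC lines the ratio, deltaFT over wild type, was 1.05 (0.878 to 1.26) for all reads and 1.20 (0.921 to 1.58) for the second-listed allele. In bulk cells, a smaller share of cells with an open site and less opening in each cell cannot be told apart. For the whole X outside the window the first-listed allele held 48.8% of allelic reads in mESC, 20.6% in wild-type NPC and 8.19% in deltaFT NPC. The 5' peak lay below the pooled chrX share in both NPC lines, and near the share of the median chrX peak, 3.26% in wild type and 3.77% in deltaFT.

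Inside the gene, most peaks of wild-type NPC were read from both X chromosomes. The 15 peaks of the interval other than the 5' peak held 48 to 415 reads, with a median of 177, and 14 of them had the 10 allelic reads asked for. Their first-listed share ran from 34.1% to 100%, and the lowest bound of any of their intervals, 26.8%, lay above the upper bound of the 5' peak. Of these 14 peaks, 11 had at least 20% of reads from each allele, 3 had at least 80% from the first-listed allele, and none had at least 80% from the second-listed allele. Over the usable chrX peaks of this line 26.5% were read from both alleles by this limit, and in the window it was 11 of 16. At least 80% came from the second-listed allele in 73.1% of these chrX peaks, and in 2 of 16 in the window. Pooled over the 14 peaks the first-listed share was 47.2% (45.0% to 49.5%), from 922 and 1030 reads. This pool joins the 3 first-listed peaks with the 11 read from both alleles. Those 11 had 743 first-listed and 1024 second-listed reads, and 9 of them had a share below 50%. How often other peaks read from both alleles lie below 50% was not counted.

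The peak with most reads, 415, lay at 47965442 to 47965725 with 123 first-listed and 238 second-listed reads (34.1%, 29.2% to 39.2%). Directly beside it, the peak at 47964976 to 47965363 had 67 and 115 (36.8%, 29.8% to 44.3%). Both leaned to the second-listed allele, with intervals below 50%. At 47956140 to 47956395 there were 327 reads but only 19 and 19 allelic ones, so 11.6% of its reads could be given to an allele. The peak at 47953510 to 47953774 had 97 and 122 of 286 reads (44.3%, 37.6% to 51.1%), and its neighbour at 47953012 to 47953254 had 26 and 32 of 177. Near-equal alleles were also seen at 47930099 to 47930367, with 50 and 53 (48.5%, 38.6% to 58.6%). The peak at 47958778 to 47959030 leaned to the first-listed allele, with 106 and 61 (63.5%, 55.7% to 70.8%). Among the 11 peaks read from both alleles, 5 intervals lay below 50%, 1 above it and 5 held it. The same count was not made for other peaks of the line, so it has no background. The remaining ones were 75 and 104 at 47973135 to 47973458, 66 and 91 at 47933457 to 47933884, 71 and 110 at 47925754 to 47926166, and 43 and 79 at 47914062 to 47914543, farthest from the 5' peak. They ranged from 35.2% to 42.0%. The peak at 47944713 to 47944971 had 91 reads and 0 allelic ones, so its allelic share could not be given.

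**Figure D3:**
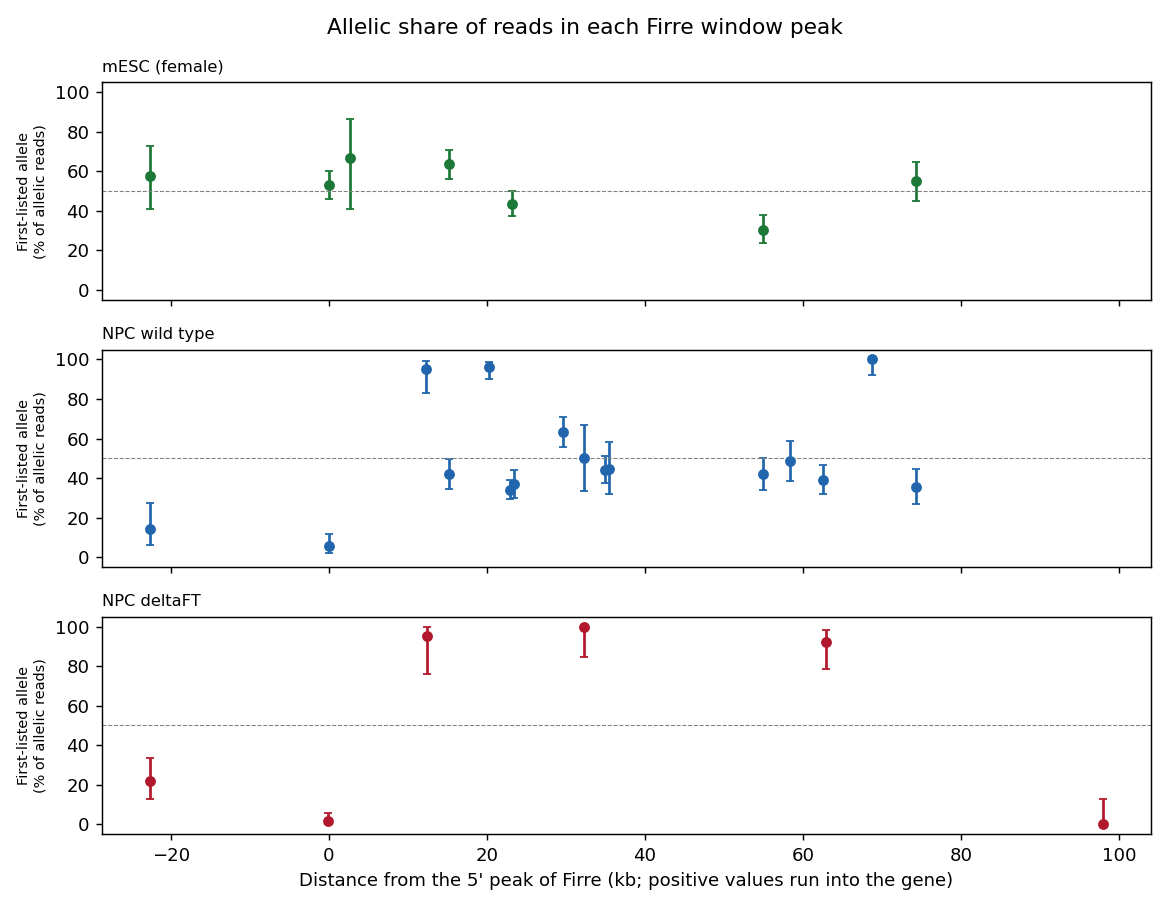
Percent of allelic reads from the first-listed allele in each reproducible peak of the window with at least 10 allelic reads, by distance in kb from the 5' peak, with exact 95% intervals as bars. In wild-type NPC the 5' peak is at 5.45% and the peaks inside the gene between 34.1% and 100%, while in deltaFT NPC 3 gene peaks are above 92%.

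Some peaks inside Firre were read almost entirely from the first-listed X, the less accessible X of the progenitors. In wild-type NPC these were 47919697 to 47919818, with 44 first-listed and 0 second-listed reads, 47968137 to 47968384, with 97 and 4, and 47976074 to 47976314, with 38 and 2. In deltaFT NPC they were 47925462 to 47925685, with 35 and 3, 47956144 to 47956387, with 22 and 0, and 47976075 to 47976284, with 20 and 1. Their shares ran from 92.1% to 100%, and the lowest bound of their intervals was 76.2%, in deltaFT NPC. Such peaks were rare elsewhere on chrX. At least 80% of reads came from the first-listed allele in 0.96% of usable chrX peaks in wild-type NPC (8 of 833), 3 of them in Firre, and in 0.663% in deltaFT NPC (5 of 754), again 3 in Firre. In mESC 3.2% of chrX peaks were of this kind and 0 of 7 in the window. The limit of 80% was chosen after the values were seen.

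None of these 6 peaks overlapped a reproducible mESC peak, so their alleles in cells without an inactive X were not measured. On chrX 34.5% of wild-type NPC peaks and 40.3% of deltaFT NPC peaks overlapped one. All 6 overlapped a peak of an mESC library list, which gives no allele counts. The peaks at 47976074 in wild type and 47976075 in deltaFT are the same site. Outside Firre, the 5 such peaks of wild-type NPC included 3 at 72989838 to 72996020. The strongest of these, at 72995729 to 72996020, had 224 and 2 reads there and 212 and 2 in mESC. A share near 100% thus also occurred where the stem cells showed it. Differences between the strains in sequence or in the mapping of reads were not tested. The site at 120216750 to 120217520 in deltaFT NPC had 273 and 4 reads there against 81 and 48 in mESC.

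In mESC the alleles of the locus were near balance. The window share was 49.2% (45.9% to 52.4%) over 7 usable peaks, next to 48.8% over the rest of chrX. All 7 were read from both alleles, as were 94.7% of chrX peaks. Single peaks differed beyond counting error all the same, and how many other chrX peaks do so was not counted. The peak at 47933414 to 47933924 had 53 and 121 reads (30.5%, 23.7% to 37.9%), and the peak at 47973168 to 47973476 had 109 and 62 (63.7%, 56.1% to 70.9%). Closer to balance were 47913961 to 47914524, with 59 and 48, and 47965005 to 47965728, with 104 and 134. The peak at 47985745 to 47986026, the nearest to the 5' peak, had 12 and 6 of its 123 reads. It had no counterpart in any list of either NPC line, and was found in 3 of the 4 TXY lists.

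Of the 8 mESC window peaks 6 overlapped a reproducible wild-type NPC peak, against 35.3% on chrX. In the other direction 7 of 18 did, against 34.5%, and 17 of 18 when the mESC library lists were searched as well, against 55.3%. Most gene sites of the progenitors were thus also peaks in a stem cell list. In the 6 mESC peaks with a match, the first-listed share was lower in wild-type NPC, with intervals apart, in 4 of 6, against 64.2% of 338 matched chrX peaks, and higher in 0, against 1.48%. The 4 were the 5' peak, the flanking peak beyond it, and 2 peaks inside the gene, which went from 55.1% to 35.2% at 47913961 and from 63.7% to 41.9% at 47973168. At 47933414 the share was 30.5% in mESC and 42.0% in wild-type NPC, and at 47965005 43.7% and 36.8%, with overlapping intervals. The number of matched peaks that were lower was thus near the chrX background. Within the locus the 5' peak went from 53.0% to 5.45%, while no gene peak matched by largest overlap was under 35.2% in wild-type NPC. The mESC peak at 47965005 also overlaps another wild-type NPC peak, at 47965442, which was at 34.1%. Matched by largest overlap, RPM values were 2-fold or more lower in 2 of the 6, against 38.5% of matched chrX peaks. These were the 5' peak, at a log2 ratio of -1.48, and the peak at 47965005, at -1.16. The latter spans 2 wild-type NPC peaks, and against their sum its direction turned: 43.1 RPM in mESC and 56.9 in wild-type NPC, a log2 ratio of 0.40. With all overlapping peaks summed, an alternative chosen after seeing the data, the 5' peak alone was 2-fold or more lower, 1 of 6 against 36.4% on chrX.

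Peaks of the locus in wild-type NPC were mostly missing from the reproducible list of deltaFT NPC. Of the 18 wild-type NPC window peaks 4 overlapped a peak of that list (22.2%, 6.41% to 47.6%), against 53.9% on chrX. Among peaks with at least 100 reads, a limit chosen after the values were seen, it was 3 of 15 against 79.6%. The 14 wild-type peaks not found had a median of 177 reads, next to 54 for the chrX peaks not found. In the reverse direction 4 of 8 deltaFT window peaks overlapped a wild-type peak, against 62% on chrX. Once the library lists of deltaFT were searched as well, 15 of the 18 were found, against 81.6% on chrX. Most of the missing peaks thus stood in a deltaFT library list without entering the reproducible one. In that library the 23 gene peaks other than the 5' peak had a −log10 p from 4.65 to 15.9 with a median of 8.28, and in library 1 of wild-type NPC 23 had 3.05 to 26.7 with a median of 11.0. The values are those of the authors' peak caller and depend on the depth of each library.

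Within deltaFT NPC the 5' peak had the most reads in the window, 254, and the gene peaks held 37 to 119. In wild-type NPC the order was different: the 5' peak had 240 reads and 3 gene peaks had more. The first-listed X of deltaFT NPC was nonetheless read inside the gene. The 3 gene peaks with usable alleles had 77 first-listed and 4 second-listed reads in all (95.1%, 87.8% to 98.6%). The other pair of gene peaks, at 47943954 to 47944179 and 47944267 to 47944393, had 56 and 37 reads and 0 allelic ones. Peaks read from both alleles numbered 1 of 6 in the window, the flanking peak, against 10.1% on chrX.

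In the 4 peaks matched between the NPC lines, the first-listed share was higher in deltaFT in 1, against 3.31% of 514 matched chrX peaks, and lower in 0, against 20% of them. The peak that differed was the one at 47956140, where wild type had 19 from each allele and deltaFT 22 and 0. Its total was 327 in wild type and 119 in deltaFT, a log2 ratio of -1.47 in RPM, and it was the only one of the 4 with 2-fold or more fewer reads, against 12.7% on chrX. At 47976074 both shares lay near 95%, with 107 and 84 reads. The peak at 47925754 in wild type (39.2%) and that at 47925462 in deltaFT (92.1%) are neighbours that do not overlap, so they were not compared. Against mESC, the first-listed share was lower in deltaFT with intervals apart in 2 of 2 matched peaks, next to 87.4% on chrX.

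Outside the gene few peaks were shared. The flanking peak beyond the 5' end had the fewest reads of the mESC window, 52, at 48011109 to 48011301. Wild-type NPC had 73 there, and 77 were counted in deltaFT NPC. Its first-listed share was 57.5% (40.9% to 73.0%), 14.3% (5.94% to 27.2%) and 22.1% (12.9% to 33.8%). The NPC values overlapped, and the interval of mESC lay above both. Beyond the 3' end, the strongest flank peak of wild-type NPC, at 47903032 to 47903265, had 132 reads with 1 and 7 allelic ones, too few to use. In deltaFT NPC the strongest was at 47890391 to 47890826, with 112 reads and 0 first-listed against 27 second-listed. It was absent from all wild-type NPC lists. In mESC the strongest was at 47809408 to 47809672, with 60 reads and 3 and 1 allelic ones. It was present in all 4 TXY lists and in no NPC list.

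By pooled share, few stretches of chrX held more first-listed reads than the locus in either progenitor line. The window held 44.3% (42.2% to 46.4%) first-listed reads in wild-type NPC, where 9 of 160 stretches with at least 100 allelic reads had a higher share, and the median stretch had 3.27%. In deltaFT NPC it held 30.9% (25.8% to 36.4%), with 4 of 164 stretches higher and a median of 4.03%. The deltaFT value joins gene peaks read from the first-listed allele with a 5' peak read from the second-listed one and does not show opening of both alleles at single sites: 126 of its 210 second-listed reads came from the 5' peak. In mESC the window at 49.2% lay near the median of 49.3%.

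**Figure D4:**
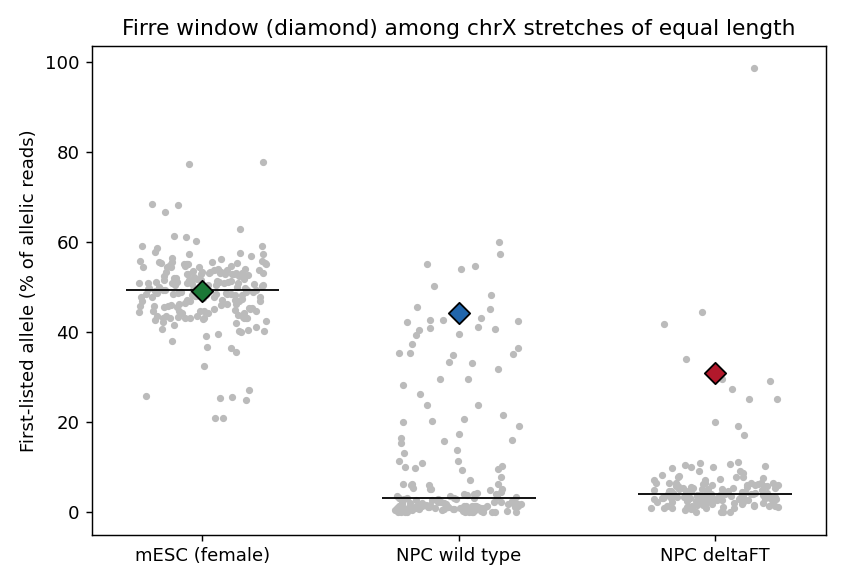
First-listed share of allelic reads in chrX stretches of 300 kb with at least 100 allelic reads (grey points, spread sideways at random), with the median as a line and the Firre window as a diamond, in 3 lines. The window is at 49.2% in mESC, 44.3% in wild-type NPC and 30.9% in deltaFT NPC, above most other stretches in the NPC lines.

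The 3 stretches closest to the window in these shares, among 120 measured in all lines, lay at 7300001 to 7600000, 91300001 to 91600000 and 45400001 to 45700000. Closeness was the Euclidean distance over the 3 lines, 5.27, 9.47 and 9.51 percentage points. The first had 47.8%, 40.7% and 27.3% in mESC, wild-type NPC and deltaFT NPC, the second 52.3%, 35.4% and 29.7%, and the third 51.0%, 35.5% and 34.0%. The first also had the 19 wild-type NPC peaks that made it the stretch richer in peaks than Firre.

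In male TXY mESC the locus was open in all 4 conditions, and its 5' peak was the strongest of the gene in each list. The −log10 p of the 5' peak was 53.0 in wild type without dox and 12.7 with dox, and 38.5 and 23.3 in deltaRepA. The deposited fold over background was 11.8 and 6.38, and 12.5 and 9.47. These values depend on each list's depth and were set side by side without a comparison. Among the chrX peaks of its own list the 5' peak ranked, by −log10 p, 73 of 2377 and 397 of 1462 in wild type, and 67 of 2504 and 239 of 2442 in deltaRepA.

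**Figure D5:**
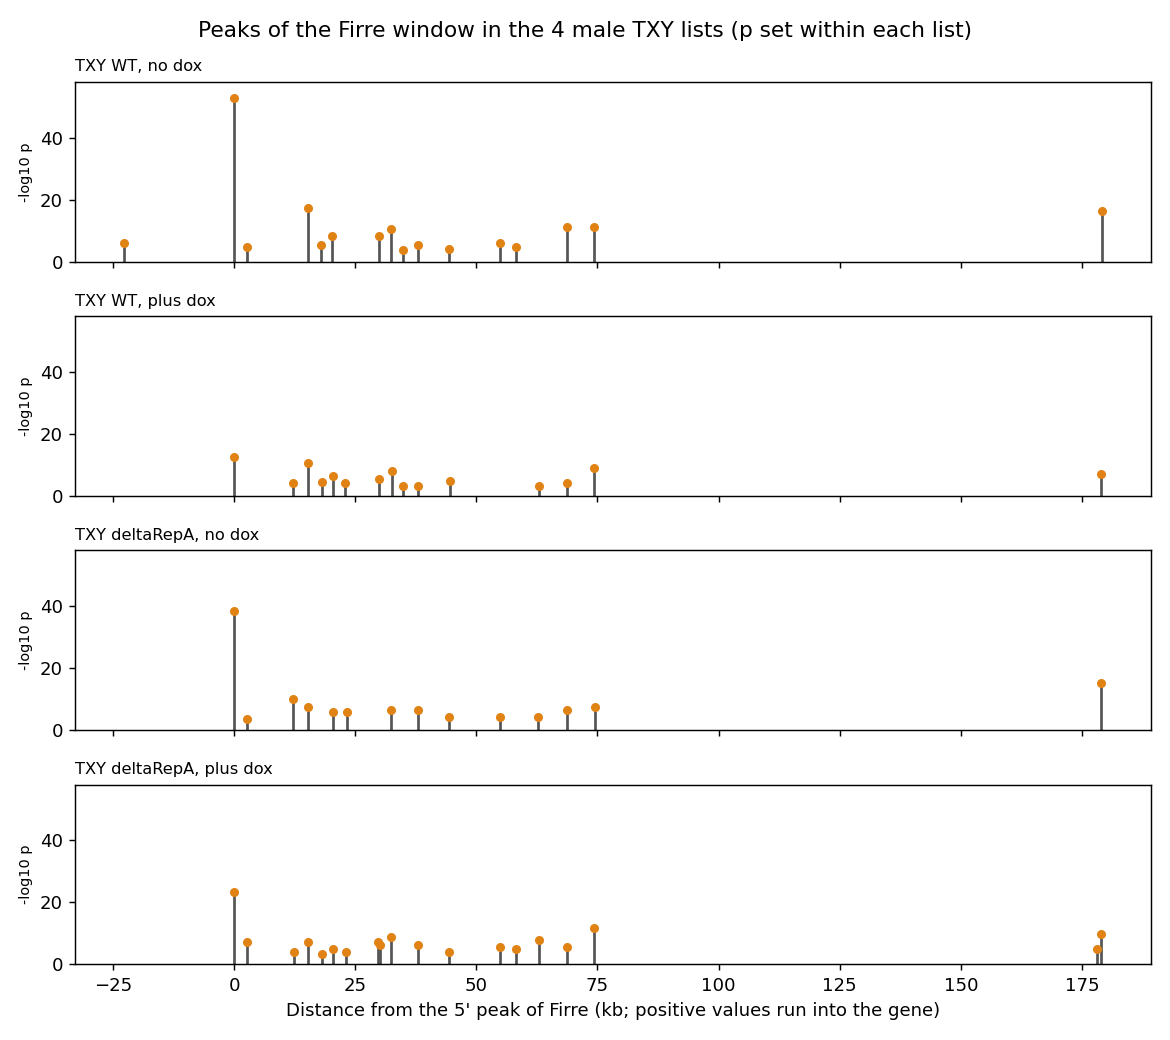
The −log10 p of each window peak in the 4 male lists, by distance in kb from the 5' peak. The 5' peak at 0 is the highest in each list, from 12.7 in wild type with dox to 53.0 without, and the values depend on the depth of each list.

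The gene peaks other than the 5' peak had a median −log10 p below that of chrX in each list. They numbered 13, 13, 12 and 16, with medians of −log10 p of 6.23, 4.56, 6.25 and 5.90 against chrX medians of 8.34, 7.19, 6.68 and 7.11, in the order wild type without and with dox and deltaRepA without and with dox. Next in wild type without dox was 47973171 to 47973593 at 17.5, and then 47914069 to 47914488 and 47919618 to 47920011, tied at 11.4. With dox the corresponding peaks, 47973176 to 47973509 and 47914131 to 47914428, were again next, at 10.8 and 8.92. In deltaRepA without dox 47976126 to 47976472 was next at 10.2, and then 47973183 to 47973477 and 47913772 to 47914456, tied at 7.50. With dox they were 47914116 to 47914428 at 11.6 and 47956006 to 47956402 at 8.83.

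Peaks of the window were mostly kept when Xist was induced. In wild type 12 of 16 no-dox peaks were also found with dox (75%, 47.6% to 92.7%). On chrX it was 55.5%, and on autosomes 62.1%. In deltaRepA all 14 were found (76.8% to 100%), next to 75% on chrX and 68.7% on autosomes. The chrX value lay inside the wild-type interval and just below the lower bound in deltaRepA. With a reciprocal overlap of 50% asked, deltaRepA kept 11 of 14 (78.6%, 49.2% to 95.3%) next to 66.4% on chrX. Whether the genotypes differ was not tested. The −log10 p of the peaks not found in wild type lay at or below the gene median of 6.23: 47933501 to 47933731 and 48010986 to 48011421 at 6.23, 47930185 to 47930393 at 4.95 and 47985815 to 47986014 at 4.92. All but 48010986 lie inside the gene. Weaker peaks of the same list were kept, such as 47943955 to 47944238 at 4.34 and 47953522 to 47953721 at 3.77. Of wild-type plus-dox peaks 12 of 15 were found without dox, next to 92.5% on chrX and 69.4% on autosomes. In deltaRepA it was 14 of 19, next to 77.9% on chrX and 62.8% on autosomes. With a −log10 q of at least 5 asked in both lists, 4 of 8 wild-type window peaks were kept, next to 50.9% on chrX, and 3 of 5 in deltaRepA, next to 77.2%. The numbers are small, and a difference from chrX was not tested.

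Over the 4 male lists 8 of the 24 sites of the gene were found in every list. The same count was not made for the rest of chrX. The site at 47985737 to 47986026, nearest to the 5' peak, was found in both deltaRepA lists and in wild type without dox, and not in wild type with dox. The flanking site at 48010986 to 48011421, seen in all 3 female lines, was found in the wild-type no-dox list alone among the male ones.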

How the data were processed

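Peak lists in mm9 were analysed as deposited. Reads were trimmed with cutadapt and aligned with Bowtie2, and peaks were called with MACS2, per the submitters' processing notes (settings and versions: not given in the sources used here). Among the authors' files, the lists for female lines are 1 of reproducible peaks, with deposited read counts in all and per allele, and 1 per library. Whether these counts cover 1 or both libraries is not stated. For TXY cells the authors deposited 1 merged list per condition. Fold over background, −log10 p and −log10 q are the peak caller's values, as deposited. Female lists held 6.49e+06 to 1.11e+07 reads in peaks, and for TXY lists depth is unknown.

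Peaks overlapping the window were taken, and start coordinates were moved by 1 to count from 1. Peaks matched by the largest overlap of at least 1 bp, alleles needed 10 reads, and shares have exact Clopper-Pearson intervals at 95%. A share was called lower or higher where intervals lay apart. Named are all reproducible Firre peaks with 10 allelic reads, the flank peak with most reads per line, and in TXY lists the 3 strongest gene peaks and the strongest peak lost. Other named peaks were chosen after their values were seen. The members and lists were chosen with earlier results of these data known. Python 3.11.15, pandas 2.3.3 and scipy 1.17.1 were used, and the scripts' interval and matching steps were tested on simulated data. Promoter sequence came from RefSeq.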

Additional observations from a re-analysis of the deposited data

How the results depend on the processing

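Of 61 alternatives over 24 results, 42 kept the value within its counting error or count limit, 18 moved it and 1 reversed it. The count limit was a ratio of 1.5, and wide intervals let large changes of a share pass as kept. With all overlapping wild-type NPC peaks summed, chosen after seeing the data, the log2 ratio at 47965005 turned from -1.16 to 0.40, since the mESC peak spans 2 of them, and 1 window peak was 2-fold or more lower in place of 2. Window peaks numbered 31 and 30 in the library lists of mESC, 34 in library 1 of wild-type NPC and 34 in that of deltaFT NPC. With a −log10 q of at least 5, an alternative chosen after seeing the data, library 1 held 12 in mESC, 20 in wild-type NPC and 16 in deltaFT NPC. With that limit the TXY lists held 8 and 4 window peaks in wild type without and with dox, and 5 and 5 in deltaRepA, and 60% of deltaRepA peaks were kept with dox, or 78.6% under a reciprocal overlap of 50%. The first-listed share was 55.1% in mESC as a median over peaks, and in deltaFT NPC 57.1% as a median over peaks and 37.8% over the Firre interval alone. Under a reciprocal overlap of 50%, 1 peak had overlapping intervals between mESC and wild-type NPC, where fewer peaks match. With library lists searched as well, 94.4% of wild-type NPC peaks were found in mESC, 83.3% in deltaFT NPC, and 87.5% of deltaFT peaks in wild-type NPC. No paired analysis was possible because each group is 1 sample. Peaks with few reads over strain differences limit the allele shares, above all in deltaFT NPC.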
